A study of Caenorhabditis elegans with 4 samples.

Results

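Chromosome III of Caenorhabditis elegans carried 1487 of the 7546 HTZ-1 peaks in the list deposited for the whole series, or 19.7% of them. They are all peaks that the list places on that chromosome, and the rule uses neither score nor width. The peaks came from chromatin immunoprecipitation and sequencing (ChIP-seq) of wild-type N2 embryos of mixed stages, from a population of males and hermaphrodites kept at 20 °C, with a polyclonal rabbit antibody against the N-terminus of HTZ-1. N2 is the standard laboratory strain, and the whole embryos mix all their cell types, so a peak cannot be assigned to a tissue. There were 2 ChIP samples, each with its own peak list, and 2 input samples, which are not analysed here. The list of the whole series names no sample and is taken to draw on both replicates, so it is called the combined list and has no replicate error of its own. On chromosome III replicate 1 had 763 peaks and replicate 2 had 720.

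HTZ-1 is the worm form of the histone variant H2A.Z. It replaces ordinary H2A in part of the nucleosomes, is put in place by remodelling complexes of the SWR1 type, and is known in many organisms from nucleosomes that flank transcription start sites. Each peak here is a stretch of chromatin in which the variant was enriched, and its score, given by the authors' peak caller on a scale that the sources used here do not state, orders the peaks within a list. The autosomes of this worm have a central part with many broadly expressed genes and outer arms richer in repeats. Gene names and gene density around the peaks are not analysed here, since no annotation of the peaks' own genome build was used. All positions are 1-based on WormBase WS220.

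Chromosome III was followed from its first base to the furthest peak end in any list, at 13783551, and cut at 4.6 and 9.2 Mb into a left arm, a centre and a right arm. The first peak lay at 25102 to 26435 in the combined list, at 24720 to 26910 in replicate 1 and at 24638 to 26783 in replicate 2. At the other end the last replicate peaks reached 13772756 and 13772790, and 1 weak combined-list peak lay beyond them, at 13783395 to 13783551. Replicate values below are given for both lists, with the standard deviation between them where a mean is shown. An exact test on 2 replicate values cannot go below p = 0.5, and peaks of 1 chromosome are not independent, so no p-values are given and differences are set against the spread between the replicates. Whether separate cultures were grown for the replicates is not stated in the labels, so that spread may be technical. The number of sequenced reads is unknown, and the binomial intervals below cover counting error only.

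The left arm, the part with the fewest peaks, held most of the 10 highest-scoring combined-list peaks, though not the highest of all. It had no such lead among the first 50. Of the 10 highest-scoring peaks that were found in both replicates, 7 lay in the left arm, 1 in the centre and 2 in the right arm, whereas among the first 50 the right arm had 20 and the left arm 18. The highest of all, in the right arm at 10459648 to 10462013, was 2366 bp wide and had rank 6 of the whole list. It had a score of 3100, a value at which many replicate peaks are tied, in each replicate list. The highest peak of the centre, at 7122217 to 7123990, was 1774 bp wide, had rank 11, and scored 3100 in replicate 1 and 3162 in replicate 2. The highest peak of the left arm, at 1495197 to 1496875, was 1679 bp wide, had rank 16, and scored 2840 in replicate 1 and 3194 in replicate 2. Next came left-arm peaks at 1557783 to 1559386 and 2313528 to 2315096, both at rank 18, and at 1539704 to 1541013 with rank 20. The remaining 4 began at 85372, 4342581 and 4567790 in the left arm and at 12672931 in the right arm. All 10 were between 1310 and 2544 bp wide in the combined list. In replicate 1, 8 of them stood at 3100, where 130 peaks of the chromosome had that score or more. Those that began at 1495197 and 12672931 ranked 150 and 173 on the chromosome in that list. In replicate 2 the scores of the 10 ran from 2553 to 3194. The combined list presumably uses the same libraries, so these scores are not independent support. Each of the 10 lay under a single peak of each replicate.

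Most chromosome III peaks were present in both replicates, and the share was close to that of the whole list. Of the 1487 peaks, 884 overlapped peaks of both replicates by at least 1 bp, which is 59.4% (exact 95% binomial interval 56.9% to 62.0%), against 57.6% over all chromosomes. A further 208 met replicate 1 alone, 14.0% against 13.9% in the whole list. Replicate 2 alone supported 64, or 4.30% against 5.23%. The remaining 331 met neither replicate, which is 22.3% (20.2% to 24.5%), against 23.3% in the whole list. The supported peaks were contained in the replicate peaks rather than touching their edges, since 851 of the 884, or 96.3%, lay wholly inside peaks of both replicates. The replicate peaks were wider, with medians of 2547 and 2474 bp against 1307 bp for the supported peaks, which makes containment easier. The share only describes how the lists relate.

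Support changed steeply over a narrow range of score. Among the lowest 40% of the chromosome III peaks by score, 110 of 594 were found in both replicates. In the next 10%, with scores from 10.8 to 17.9, the share was 43.6%, and in the 10% after that, with scores from 18.1 to 33.6, it was 78.5%. It was 98.0% in the following 10%, and all 447 peaks of the top 30% were found in both. Because the combined list presumably uses the same libraries, this describes how the lists relate and is not an independent test. The score classes were not computed over all chromosomes, so whether the change is particular to chromosome III was not tested. Median scores were near those of the whole list, at 58.3 against 55.3 in both replicates and 5.42 against 5.44 without support. The highest-scoring peak without any replicate support lay in the centre, at 8860772 to 8861400, with a score of 33.6 and rank 2894 of the whole list.

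**Figure D1:**
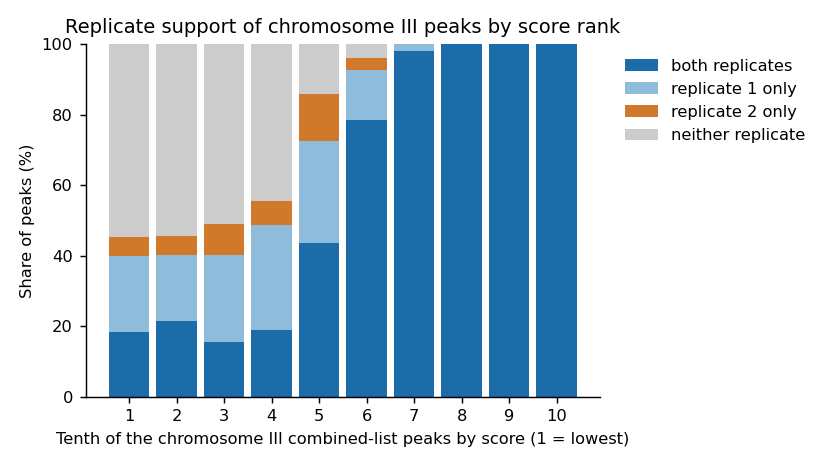
Share of the chromosome III combined-list peaks (%, vertical axis) that overlap peaks of both replicates, of 1 replicate or of neither, for 10 classes of about equal number by score (horizontal axis, 1 = lowest). Support by both replicates was 43.6% in class 5, 78.5% in class 6 and 98.0% in class 7.

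Peaks without support were smaller than the supported ones. Their median width was 258 bp (quartiles 189 and 377 bp), against 1307 bp (quartiles 859 and 1647 bp) for the peaks found in both replicates. Peaks found in replicate 1 alone had a median of 432 bp and those in replicate 2 alone 405 bp. The whole list had similar medians, 268 bp without support and 1235 bp in both replicates. They were 444 bp in replicate 1 alone and 411 bp in replicate 2 alone. Only 9 of the 331 unsupported peaks lay less than 1 kb from a peak found in both replicates, and the median distance to the nearest such peak was 5030 bp. To the nearest peak of either replicate list the median was 3377 bp, with 45 of the 331 under 1 kb and 68 over 10 kb. An overlap of 1 bp with a replicate peak would have made them supported, so the shortest distances are limited by that definition.

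The left arm held the fewest sites per length in every list. It had 43.0 peaks per Mb in replicate 1 and 42.2 in replicate 2, against 64.6 and 60.4 in the centre. The ratio of left arm to centre was 0.667 in replicate 1 and 0.698 in replicate 2. The left arm averaged 42.6 ± 0.61 peaks per Mb (SD, n = 2 replicates) and the centre 62.5 ± 2.92, so the difference is many times the spread between the replicates. The combined list gave 91.7 and 107 peaks per Mb, a ratio of 0.856. Peaks covered 12.2% of the left arm and 18.2% of the centre in replicate 1, 11.6% and 16.0% in replicate 2, and 8.19% and 11.0% in the combined list.

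The right arm came close to the centre in the replicates and exceeded it in the combined list, where low-scoring peaks were numerous. It had 58.5 peaks per Mb in replicate 1 and 54.1 in replicate 2, ratios to the centre of 0.906 and 0.895. In both replicates it was thus below the centre, with a mean ratio of 0.900 ± 0.0073 (SD, n = 2). The mean values themselves, 56.3 ± 3.09 and 62.5 ± 2.92 (SD, n = 2), lay apart by about the sum of their spreads. Replicate 1 had more peaks in both segments, so those spreads include the difference between the lists. In the combined list the right arm held 125 peaks per Mb, a ratio of 1.16. When only peaks in the upper 50% of the whole combined list by score were counted, the ratio was 0.948. With peaks less than 1 kb apart joined into 1, it was 1.06, so part of the excess lay in closely spaced peaks. Peaks of the lower 50% numbered 65.5 per Mb in the right arm, 44.6 in the centre and 48.3 in the left arm. By covered length the right arm and the centre were near each other, at 10.9% and 11.0%. The right arm was above the left in each list, with ratios of 1.36 in replicate 1, 1.28 in replicate 2 and 1.36 in the combined list.

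**Figure D2:**
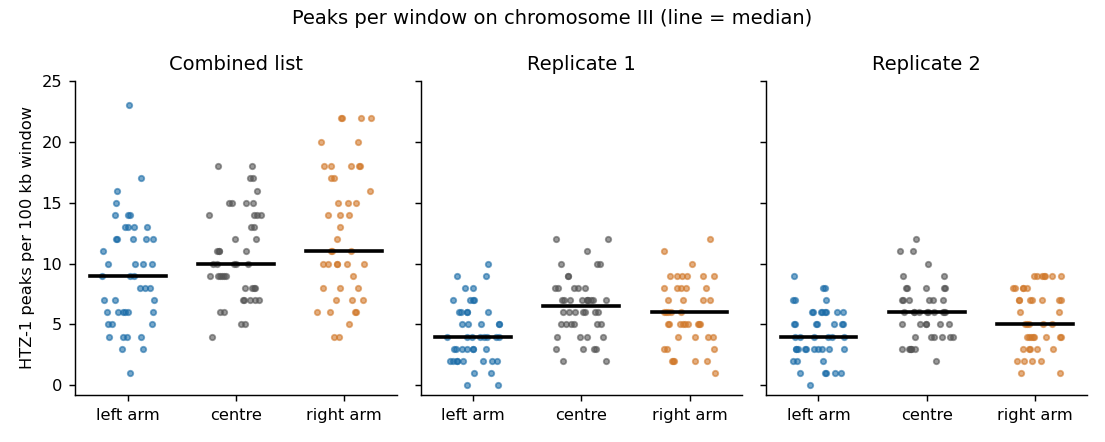
HTZ-1 peaks in each full 100 kb window of chromosome III (vertical axis), by segment and list; each point is 1 window and the line is the median. In the replicates the left arm is lowest, with a median of 4 peaks per window against 6.5 and 6 in the centre, while the combined list has its highest median, 11, in the right arm.

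Along the chromosome the number of sites was lowest from 1 to 3 Mb and rose before the centre began. The first 1 Mb held 84 combined-list peaks, with 42 in replicate 1 and 38 in replicate 2. The next held 69, with 28 and 31 in the replicates, the lowest count of the 13 full bins of 1 Mb in each list. The bin from 2 to 3 Mb held 81, with 36 in each replicate. The bin from 3 to 4 Mb then held 113, with 49 in each replicate. The one from 4 to 5 Mb held 129, and with 72 and 66 peaks it was the fullest bin of both replicates. Between 5 and 9 Mb the combined list ran from 94 to 115 peaks per bin and the replicates from 59 to 69. The fullest bin of the combined list was that from 11 to 12 Mb, with 135 peaks, but the replicates had 60 and 55 there, fewer than in any bin between 4 and 9 Mb. In that bin 42.2% of the combined-list peaks belonged to the upper 50% by score, against 67.0% between 6 and 7 Mb. The part of the left arm next to the centre, from 3 to 4.6 Mb, had 57.5 and 55.6 replicate peaks per Mb, near the right arm's 58.5 and 54.1, whereas the stretch from 1 to 3 Mb had 32.0 and 33.5.

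The longest distances without a peak were all in the left arm. The longest in the combined list ran from 1962952 to 2077831, over 114880 bp. The next ran from 1317223 to 1417585 (100363 bp), from 1621176 to 1705057 (83882 bp), from 3541490 to 3621034 (79545 bp) and from 696998 to 772446 (75449 bp). No replicate peak had its midpoint inside any of these 5, and the replicate peaks that reached into them covered at most 1398 bp. The longest distance of replicate 1 was 167315 bp, from 1250039 to 1417353, and held 4 combined-list peaks, of which the highest scored 21.3. That of replicate 2 was 116623 bp, from 2187384 to 2304006, and also held 4 combined-list peaks, with scores up to 9.32. The 3 longest distances of each replicate, 6 in all, lay in the left arm. In the centre no distance exceeded 71153 bp in the combined list, 75985 bp in replicate 1 and 81055 bp in replicate 2.

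Dense stretches of the combined list were mostly in the right arm and were not always dense in the replicates. Over the 137 full windows of 100 kb the combined list had between 1 and 23 peaks, with a median of 10. The window with the most was in the left arm, from 3700001 to 3800000, with 23 peaks that merged into 13 runs when peaks less than 1 kb apart were joined. Each replicate had 6 peaks there, which ranked 51 in replicate 1 and 43 in replicate 2. That window also held the widest replicate 1 peak of the chromosome, at 3718462 to 3730791, whose 12330 bp contained 7 combined-list peaks and met 3 peaks of replicate 2. The other 4 of the 5 densest windows lay in the right arm, began at 10400001, 10800001, 11900001 and 12400001, and held 22 peaks each. The last of these had 12 peaks in replicate 1, the highest count of that list and reached in 3 windows, and 8 in replicate 2, and 23.7% of it was covered by combined-list peaks, the highest share of all windows. The others had 9, 9 and 11 peaks in replicate 1 and 9 each in replicate 2. Replicate 1 also had 12 peaks in the centre windows that began at 4900001 and 7900001. Replicate 2 had 11 and 12 peaks there, and 12 was its highest count. The window with the fewest combined-list peaks, from 1100001 to 1200000 in the left arm, held 1 peak in each list. Other left-arm windows were emptier by other measures. No replicate 1 peak had its midpoint in those that began at 1300001 and 2000001, and no replicate 2 peak in the one that began at 2200001. The lowest covered share, 1.10%, was in the one at 2000001. Across windows the counts of the replicates followed each other with a Spearman rho of 0.91, and the combined list followed them less closely, with 0.79 and 0.78. These windows belong to 1 chromosome and the lists share libraries, so the coefficients only describe these lists.

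Score ranks differed between the segments in 2 ways. The centre held the largest share of peaks in the upper 50% of the whole list, with 59.9% in replicate 1, 57.9% in replicate 2 and 58.4% in the combined list. The left arm had 52.0%, 51.0% and 47.4%, and the right arm 53.0%, 53.6% and 47.6%. The replicate means were 58.9% ± 1.43 in the centre, 51.5% ± 0.70 in the left arm and 53.3% ± 0.46 in the right arm (SD, n = 2), so the centre stood above both arms by more than the spread. At the top of the replicate lists the centre was lowest, clearly so in replicate 2. In replicate 2, 20.1% of the left-arm peaks, 8.99% of the centre peaks and 17.7% of the right-arm peaks belonged to the top 10% of the whole list. A score of 3100 or more was held by 19 left-arm, 6 centre and 21 right-arm peaks of replicate 2. In replicate 1 that score was held by 36, 46 and 48 peaks, or 18.2%, 15.5% and 17.9%, a smaller contrast in the same direction. The means over the replicates were 19.1% ± 1.36 in the left arm, 12.2% ± 4.59 in the centre and 17.8% ± 0.12 in the right arm (SD, n = 2). The gaps to the arms were thus little larger than the spread in the centre. Ties at 3100 make the class wider in replicate 1, so these spreads partly reflect unlike class sizes. The combined list showed another order, with 13.5%, 13.2% and 11.0% of peaks in its top 10%. Arm peaks were thus more spread out in score than centre peaks within the replicates, with the quartiles of replicate 2 at 221 and 1953 in the left arm, 344 and 1476 in the centre and 206 and 1848 in the right arm.

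**Figure D3:**
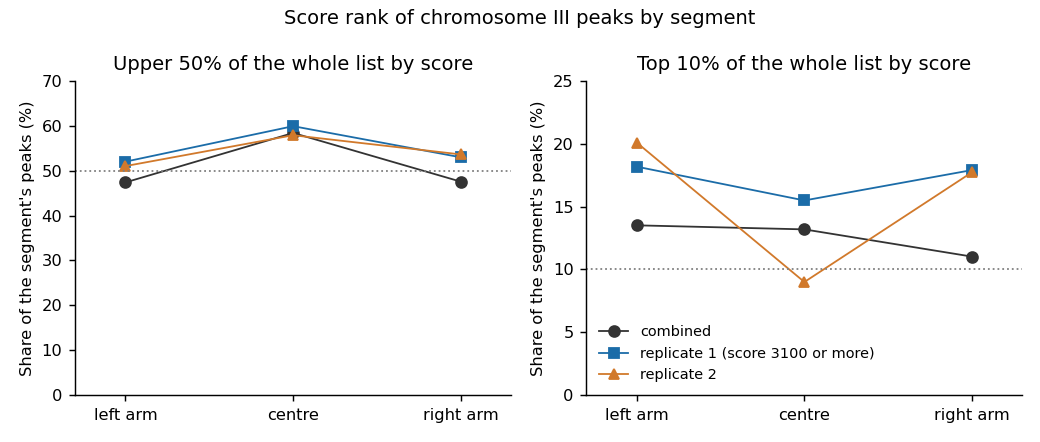
Share of each segment's peaks (%, vertical axis) in the upper 50% (left panel) and the top 10% (right panel) of the whole list by score, for each list. Dotted lines mark 50% and 10%. For replicate 1 the top class is a score of 3100 or more because of ties. That class is wider than 10%, with 12.5% of the replicate 1 peaks of the other chromosomes in it, so the 10% line is not its reference. The centre is highest in the left panel in all lists, and in the right panel it is lowest in both replicates, at 15.5% and 8.99%.

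How the strongest peaks fell on the segments depended on how many were counted. The left arm held 28.4% of all chromosome III peaks, the centre 33.2% and the right arm 38.5%. Among the 50 highest-scoring peaks found in both replicates there were 18, 12 and 20, and among the highest 100 there were 30, 28 and 42, near the shares of all peaks. In the highest 25% of the chromosome III peaks by score the centre held the most, with 98, 146 and 127. When the peaks were divided into 10 classes by score, the centre held 46.3% of the peaks of class 8 and of class 9, and the left arm 16.8% and 20.8%. In class 10, the highest, the centre held 29.5% and the left arm 34.2%.

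Peak width followed the score, and the greater width of the centre peaks in the combined list was smaller among supported peaks. Over all 1487 peaks the Spearman rho of score and width was 0.88, and it was 0.69 in replicate 1 and 0.71 in replicate 2 on this chromosome. Both quantities come from the same caller, so these values describe the lists. The median width in the lowest 25% by score was 216 bp and in the highest 25% it was 1586 bp. In the combined list the median was 1029 bp in the centre, 686.5 bp in the left arm and 623 bp in the right arm. Among peaks found in both replicates the medians were closer together, at 1351 bp, 1323 bp and 1253 bp. The replicate lists did not share a direction, with 2619 bp in the centre and 2503.5 bp on the arms in replicate 1, and 2465.5 bp and 2484.5 bp in replicate 2.

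The widest peaks were strong but not among the strongest by combined-list score. The widest member, at 7708241 to 7712524 in the centre, spanned 4284 bp. It was followed by 12426451 to 12430611 (4161 bp), 2328678 to 2332342 (3665 bp), 3733192 to 3736825 (3634 bp) and 11285403 to 11288988 (3586 bp). These 5 had scores from 88.2 to 123 and ranks no higher than 556 in the whole list. Each was found in both replicates and lay under a single peak of each, 4335 to 7143 bp wide in replicate 1 and 4029 to 8405 bp wide in replicate 2. All of them scored 3100 in replicate 1, while in replicate 2 the scores ran from 1974 to 3216. The replicate 2 peaks over 2328678 to 2332342 and 3733192 to 3736825 ranked 3 and 6 of that list on chromosome III. That over 12426451 to 12430611 ranked 149.

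Neighbouring peaks of the combined list were often close together. Of its 1486 distances between neighbours, 387 or 26.0% were under 1 kb, against 25.6% on the other autosomes together. The median was 3550.5 bp, against 4106 bp there. On chromosome III the shares under 1 kb were 27.1% in the left arm, 21.9% in the centre and 28.8% in the right arm. In replicate 1 they were 7.61%, 12.1% and 14.9%, and in replicate 2 5.18%, 8.96% and 12.6%, so the left arm went from a high share to the lowest. Long distances were the other feature of the left arm. Distances over 20 kb made up 33.0% of those in the left arm in replicate 1, against 19.9% in the centre and 26.1% in the right arm. In replicate 2 the shares were 32.6%, 24.4% and 27.1%. In the left arm these distances added up to 3.14 Mb in replicate 1 and 3.08 Mb in replicate 2 of its 4.6 Mb.

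**Figure D4:**
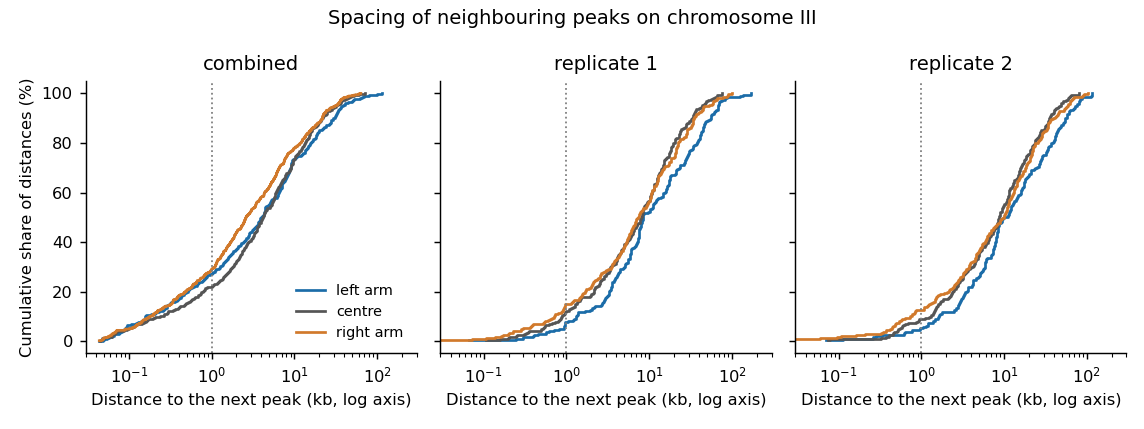
Cumulative share (%, vertical axis) of the distances from one peak to the next on chromosome III (kb, log horizontal axis), by segment and list; the dotted line marks 1 kb. At 20 kb the left-arm curve lies lowest in each list, with 33.0% and 32.6% of the replicate distances beyond that length.

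Peaks less than 1 kb apart formed runs, and some replicate peaks held more than 1 combined-list peak. Joining such peaks turned the 1487 into 1100 runs, of which 829 were single peaks, 192 were pairs and 79 held 3 or more. Of the replicate 1 peaks on the chromosome, 224 of 763 (29.4%) contained at least 2 combined-list peaks, and of the replicate 2 peaks 182 of 720 (25.3%), against 27.2% and 23.3% over all chromosomes. Within such a replicate peak the median distance between neighbouring combined-list peaks was 297 bp in replicate 1 and 255 bp in replicate 2. Divided peaks were wider than those with 1 combined-list peak, with medians of 3609 against 2368 bp in replicate 1 and 3031 against 2405.5 bp in replicate 2. They were less frequent in the centre, at 21.9% in replicate 1 and 17.6% in replicate 2, than in the left arm (32.3% and 29.9%) or the right arm (35.4% and 30.2%). Both replicates had this order, and the distance from centre to each arm was larger than the difference between the replicates within a segment.

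The longest run was supported by replicate 2 alone. It held 9 peaks between 5353238 and 5358201 in the centre, each between 160 and 884 bp wide, with scores from 5.55 to 12.1. A single replicate 2 peak, at 5352284 to 5359357 with a score of 187, contained the whole run, and no replicate 1 peak reached it. The next run, of 7 peaks between 10439369 and 10445897, lay inside 1 replicate 1 peak of 7530 bp, and 2 replicate 2 peaks covered 52.0% of it.

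Most replicate peaks of chromosome III had a partner in the other replicate, and the paired peaks lay close together. Of the replicate 1 peaks, 660 (86.5%, exact 95% binomial interval 83.9% to 88.8%) overlapped a replicate 2 peak, against 85.9% over all chromosomes. In the other direction it was 683 of 720 (94.9%, 93.0% to 96.4%), against 93.6%. In 627 pairs each peak had the other as its only partner. Their midpoints differed by a median of 78 bp (quartiles 34 and 154 bp), and 372 of the pairs (59.3%) had midpoints within 100 bp. Their starts differed by a median of 95 bp and their ends by 99 bp, while the replicate peaks themselves had median widths of 2547 and 2474 bp. Values over all chromosomes were similar. There the median midpoint difference was 74.5 bp, with 61.4% of the pairs within 100 bp, and starts and ends differed by 99 and 98 bp. On chromosome III the midpoint difference was 90.8 bp in the left arm, 64.5 bp in the centre and 80.0 bp in the right arm. Where a replicate peak contained 1 combined-list peak, the midpoints lay 47.5 bp apart in replicate 1 and 55.8 bp in replicate 2 (medians), and over all of its peaks the median share covered by combined-list peaks was 56.2% and 60.1%.

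Peaks without a partner mostly had low scores in each replicate. There were 103 in replicate 1, scoring 95.4 at the median where partnered peaks scored 1420, and 93 of them belonged to the lowest 25% of the whole list by score. In replicate 2 there were 37, scoring 101 at the median where partnered peaks scored 797, of which 29 belonged to the lowest 25%. The left arm held 19 of the 37 unpartnered replicate 2 peaks, the centre 8 and the right arm 10. Of its left-arm peaks 90.2% (85.1% to 94.0%) had a partner, against 97.1% (94.4% to 98.7%) in the centre. In replicate 1 the partnered shares were 85.9%, 89.2% and 84.0% from left to right. Likewise 31 of the 64 combined-list peaks that met replicate 2 alone were in the left arm.

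Beside the other chromosomes, III had a high density of sites in every list. Its 55.4 and 52.2 replicate peaks per Mb compare with 55.1 and 53.1 on chromosome I, 40.9 and 39.1 on II, 37.4 and 36.0 on IV, 26.9 and 25.7 on V and 23.5 and 20.8 on X. The means of III and I, 53.8 ± 2.21 and 54.1 ± 1.45 (SD, n = 2), differed by less than the spread between replicates, whereas III lay above II, IV, V and X by far more than that. The ratio of III to the other autosomes together was 1.42 in replicate 1, 1.40 in replicate 2 and 1.39 in the combined list. In the replicates 55.4% and 54.6% of the chromosome III peaks belonged to the upper 50% by score, against 53.4% and 52.9% on I, 53.4% and 52.4% on II and 51.2% and 52.1% on IV. In the combined list II was above III, with 52.3% against 51.1%. In replicate 2 the top 10% of the list took in 15.0% of the chromosome III peaks, and between 1.91% and 10.8% of those of each other chromosome. The gap was smaller in the other lists, with 17.0% on III, 15.9% on I and 15.2% on II in replicate 1, where the class is a score of 3100 or more, and 12.4%, 10.7% and 11.6% in the combined list. The replicate means of 16.0% ± 1.44 on III and 13.3% ± 3.63 on I (SD, n = 2) differed by less than the spread on I. That spread partly reflects the wider class of replicate 1, which took in 12.5% of the peaks of the other chromosomes together. No test of III against the other 5 chromosomes was made, so these values only describe the lists.

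The autosomes were also compared in equal lengths, outer parts against the central part. On III the left part had 0.663 and 0.692 times as many replicate peaks as the central one and the right part 0.906 and 0.889 times. Chromosome II had the same order, with 0.672 and 0.662 on the left and 0.983 and 0.922 on the right. Chromosomes I and IV had the opposite one, with 0.895 and 0.845 on the left of I against 0.760 and 0.744 on its right, and 0.882 and 0.886 against 0.682 and 0.682 on IV. On V the left part was also above the right, with 0.798 and 0.702 against 0.667 and 0.654. The order of the arms was the same in both replicates on each of these chromosomes. In replicate 2 the central part had the lowest share of top 10% peaks on all 5 autosomes, from 4.39% on V to 8.96% on III. Replicate 1, in which ties at 3100 widen this class, did not show that order on I, II and V.

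**Figure D5:**
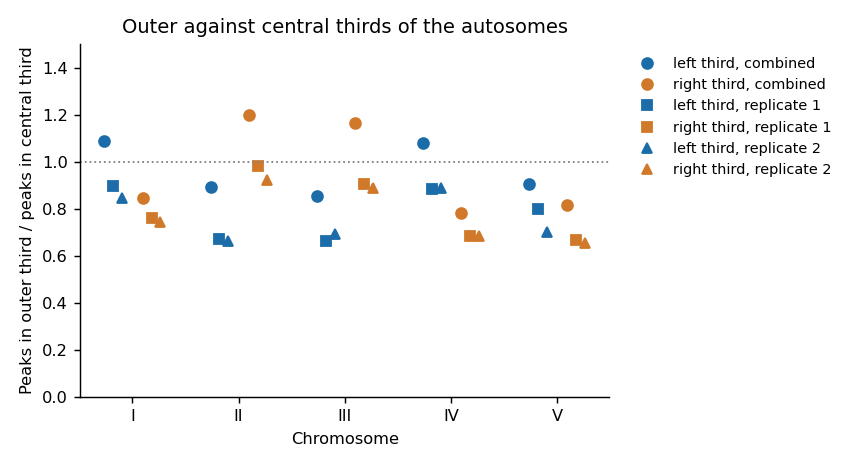
Number of peaks in the left (blue) and right (orange) outer part of each autosome relative to its central part of equal length (vertical axis), for the combined list (circles), replicate 1 (squares) and replicate 2 (triangles); the dotted line marks 1. On II and III the left part is below the right, at 0.663 and 0.692 in the replicates of III, and on I, IV and V it is above.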

How the data were processed

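Fixation was with 2% formaldehyde (30 min), followed by sonication, and 10% of the extract served as input, per the labels' protocols. The submitters' processing notes name BWA and the build ce10. Per the file headers the 3 peak lists are on WormBase WS220, and their source column names MACS for both replicates and MACS v2 for the series list. The authors deposited a start, an end and a score for each peak. The thresholds, the use of the input, the pooling and the scale of the score are not given in the sources used here. Scores were used as ranks within a list, with quoted values only as the deposited scores. Widths and distances to the next peak depend on the caller's merging, which may differ between the callers.

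Peaks were assigned to segments and windows by midpoint, distances by the midpoint between neighbours, and chromosome spans end at the furthest peak. Overlap meant at least 1 bp. Intervals are exact binomial (95%). Functions were checked on simulated lists. Python 3.11.15, numpy 2.4.6, pandas 2.3.3 and scipy 1.17.1 were used. The members, segments and comparisons were chosen with earlier results of these data known. The rule for named peaks took the 10 highest-scoring found in both replicates and the highest of each segment, the 5 widest, the 5 longest distances, the 5 densest windows of 100 kb and that with the fewest combined-list peaks, and the highest-scoring unsupported peak. Longest runs, the longest distances and densest windows of the replicates and the widest replicate peaks were named after their values were seen. Alternatives were stricter overlap, the top 50% by score, joined peaks, each replicate alone, peaks in both replicates, covered length and cuts at 4 and 10 Mb.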

Additional observations from a re-analysis of the deposited data

How the results depend on the processing

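Of 38 alternative values, 6 stayed within the spread, 26 moved beyond it in the same direction and 6 changed direction. The spread was the SD between the 2 replicates, which is narrow, or the binomial interval for the share of supported peaks. That share, 59.4%, was 26.03% when the overlap had to span 50% of both peaks, where narrow peaks cannot cover 50% of a wide replicate peak, and 94.2% in the top 50% by score. Without replicate 1 or replicate 2 it ran from 63.8% to 73.4%, since 1 list then sufficed. The left arm to centre ratio, 0.856, was 0.667 and 0.698 in replicates 1 and 2, 0.694 in the top 50%, 0.734 for peaks in both replicates, 0.800 for joined peaks, 0.742 by covered length and 0.793 with cuts at 4 and 10 Mb. It stayed below 1 in all 7 alternatives. The right arm to centre ratio, 1.16, turned to 0.906 and 0.895 in replicates 1 and 2, 0.948 in the top 50% and 0.983 by covered length, and was 1.01 for peaks in both replicates and 1.06 for joined peaks. The higher share of upper 50% scores in the centre, 10.9 percentage points, was 7.36 and 5.42 in the replicates, 7.99 for peaks in both and 13.3 with the other cuts. The wider median in the centre, by 389.5 bp, was 115.5 bp in replicate 1, -19 bp in replicate 2 and 81 bp for peaks in both replicates. The excess of distances under 1 kb on the arms, 6.19 percentage points, was -0.293 in replicate 1, 0.358 in replicate 2, 10.04 for peaks in both and 6.78 with the other cuts. The cause of these 2 shifts was not tested. The ratio of III to the other autosomes, 1.39, was 1.42 in replicate 1, 1.43 in the top 50%, 1.43 for peaks in both replicates and 1.46 by covered length. No paired analysis was possible because the input samples that share the replicate numbers are not analysed here and no result comes from a test. Read depth is unknown and limits how weak peaks can be read.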

Other observations

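Some sites on chromosome III were wide in one replicate and missing from the other. The second widest replicate 1 peak, at 4430957 to 4440094 in the left arm, spanned 9138 bp with a score of 267, held 2 combined-list peaks and met no peak of replicate 2. The widest replicate 2 peak, at 7443606 to 7452725 in the centre, spanned 9120 bp with a score of 992, above 64.4% of its list counting ties by their average rank, held 2 combined-list peaks and met no peak of replicate 1. The sites were named after their values were seen.

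Every one of the 763 replicate 1 peaks on the chromosome held a combined-list peak, while 8 of the 720 replicate 2 peaks held none. Over all chromosomes 2 of 3848 replicate 1 peaks and 32 of 3650 replicate 2 peaks held none. The 8 on chromosome III had scores from 56.3 to 164 and widths from 1648 to 7857 bp, and none had a partner in replicate 1. The widest of them lay in the centre at 6566588 to 6574444. A neighbouring pair lay in the right arm at 13074508 to 13081781 and 13082220 to 13086311.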
